A study of Mus musculus with 8 samples.

Results

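Brain RNA of mice given lead acetate at the high dose was compared with brain RNA of control mice. The series holds 8 arrays from 3 tissues, and this comparison uses 2 of them, the brain array at 1000 mg/L and the brain array of the control, with 1 array per group. A gene counts as measured here if the probe reported for it stood well above background, and was not saturated, on each of these arrays, which held for 22796 of 37325 gene names (61.1%) and for 34830 of 56605 probes. All mice were male, and for 3 weeks their drinking water was distilled water in the control, or held lead acetate, 100 mg/L in the low-dose group and 1000 mg/L in the high-dose group. Small pieces of brain, kidney or liver were kept in RNAlater, and 50 ng of RNA was labelled with the dye Cy3 for a 1-colour Agilent array. The control mice received no lead. The mouse strain and age, the piece of brain taken, and whether several tissues came from 1 mouse are not given in the sources used here. With 1 array per group no difference has a replicate check, so sizes are described and no test or p-value is given.

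Lead is a metal with no known use in the body that reaches the brain through the blood, where it is known to block the NMDA class of glutamate receptors and to disturb heme synthesis by inhibiting the enzyme ALAD. The choroid plexus is a sheet of epithelium in the brain ventricles that secretes cerebrospinal fluid, forms the barrier between blood and that fluid, and is known to take up lead. Metallothioneins bind metals, and zinc and iron carriers of the solute carrier families can move other metals as well.

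Levels below are log2 processed signals relative to the 75th percentile of the array, and differences are high dose minus control on the log2 scale. Levels of different probes cannot be set against each other. The array error is the combined error of both spots as the scanner software gives it. A gene counted as higher or lower by the size rule when its difference reached 1 on the log2 scale (2-fold) and exceeded 3 array errors. Spots well above background made up 64.0% on the control array and 67.1% on the high-dose array, with 65.8% on the low-dose brain array. Both arrays carried the marks of brain: the median level of 10 general neuron genes was 5.09 (control) and 5.10 (high dose), against -4.05 or lower on every kidney and liver array.

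Most genes differed little between the arrays. The median difference was -0.0031 with an SD over genes of 0.236, and 84.6% of genes lay within 0.25 of 0. By the size rule 46 genes were higher (0.202% of those measured) and 57 lower (0.25%), together 103 (0.452%). Of these, 72 carry a gene symbol and 31 a clone, model or locus name. Counted per probe, 67 probes were higher (0.192%) and 86 lower (0.247%). Genes with a mean level between -4 and -2 supplied 39 of the higher and 36 of the lower genes, a called share of 1.29% against 0.0419% at mean levels of 2 and above. Below -4 the called share was 0.363%, with 1 gene higher and 5 lower. For 91 of the 103 genes no other probe was measured, and of the remaining 12 genes 1 had every probe past the size rule and 4 had a probe with the opposite sign, such as Sh3rf2 (1.33 and -0.77).

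**Figure D1:**
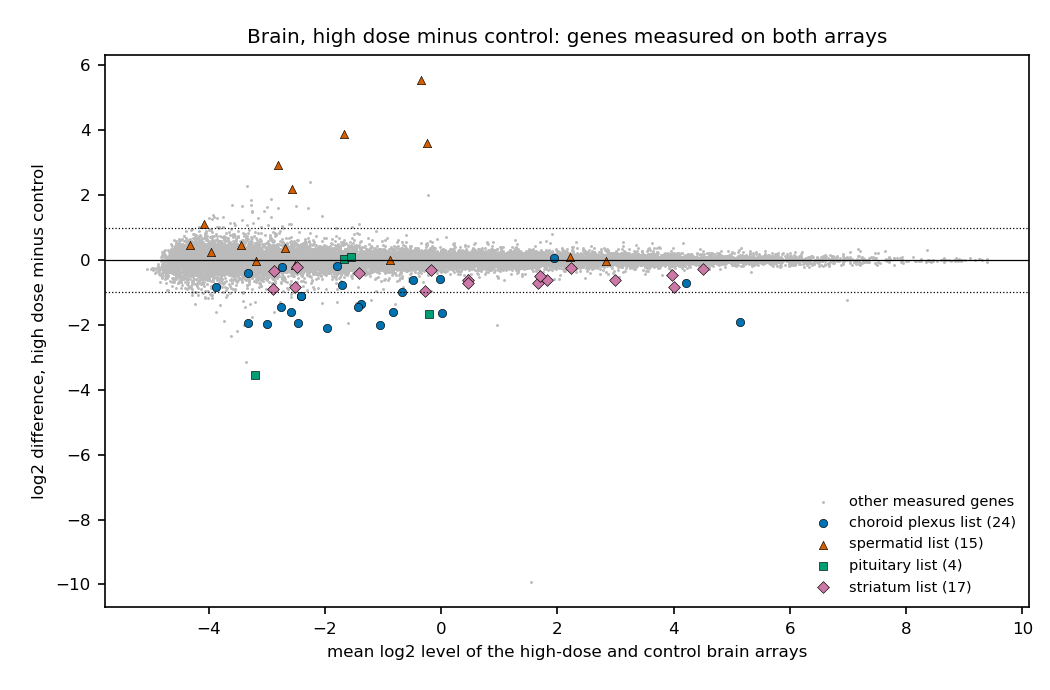
Log2 difference between the high-dose and control brain arrays against their mean log2 level, 1 point per measured gene (22796), with 4 gene lists in colour and dotted lines at differences of 1 and -1. The choroid plexus list lies mostly below 0, the striatum list between -0.95 and -0.21, and the spermatid list reaches 5.54; the lone point at -9.93 is a single probe described in the text.

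Genes of the choroid plexus epithelium made up the largest named group among the lower genes. Of 25 genes on the list, 24 were measured, 14 were lower by the size rule and 0 higher, where the rule called 0.25% of all genes lower. Their median difference was -1.24 against -0.0031 for all genes, and 23 of 24 lay below 0, where 50.9% of all genes did. The list was compiled with earlier results of these data known, so its direction is not independent evidence. In bulk tissue, fewer cells of a type and less RNA per cell cannot be told apart.

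Transthyretin, the thyroid hormone and retinol carrier that the choroid plexus secretes into cerebrospinal fluid, is encoded by Ttr. Its level was 6.09 (control), 5.78 (low dose) and 4.19 (high dose), a difference of -1.90 (3.73-fold lower, array error 0.20). The second Ttr probe gave -2.09. The high-dose array was thus the lowest of the 3 brain arrays with the reported probe, and lay below the control with both probes.

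Ion and water transport genes of this epithelium followed. Kcne2, a regulatory subunit of potassium channels, had levels of -0.92 (control), -1.29 (low dose) and -3.00 (high dose), a difference of -2.08 (4.24-fold lower, array error 0.22). Its probe lies on chromosome 16 from 92298155 to 92298214 in mm9. Aqp1, the water channel through which much of the fluid passes, stood at -2.0, -1.96 and -3.98, a difference of -1.98. Slc4a5, a sodium bicarbonate cotransporter, stood at -2.36, -2.71 and -4.29, a difference of -1.93. Clic6, of the chloride intracellular channel family, stood at -0.02, -0.06 and -1.63, a difference of -1.61. For each of these genes the control and low-dose levels lay closer to each other than to the high-dose level, which was below both. Kcnj13, an inwardly rectifying potassium channel, lay just short of the size rule at -0.997, and the cation channel Trpv4 had a difference of -0.78.

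Receptors and secreted proteins of the same epithelium were lower as well. Sostdc1, a secreted inhibitor of BMP and Wnt signalling, had levels of -0.05, -0.38 and -2.05 on the control, low-dose and high-dose arrays, a difference of -2.0 (4.01-fold lower). Folr1, the folate receptor that carries folate into cerebrospinal fluid, stood at 0.83, 0.51 and -0.79, a difference of -1.62 (3.07-fold lower). Kl encodes klotho, a co-receptor for a fibroblast growth factor, and stood at -0.70, -1.04 and -2.15, a difference of -1.45. Prlr, the prolactin receptor, differed by -1.94, but its second, dimmer probe differed by -0.22. The remaining genes past the rule were Calml4 (-1.60), F5 (-1.45), Cox8b (-1.35), Steap1 (-1.12) and Lbp (-1.11).

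Members short of the size rule included Cldn1 (-0.84), a tight junction gene, Enpp2 (-0.71), which makes autotaxin, Msx1 (-0.60) and Col8a1 (-0.58). Otx2, a transcription factor of choroid plexus cells, gave -0.41 with its reported probe and -1.55 with another. The other 2 probes of Enpp2 gave -0.19 and 0.12. Ace (-0.22), Tmem72 (-0.19) and the sulfate carrier Slc13a4 (0.08) were close to the control, and Slc13a4 was the 1 measured member above 0. Cldn2, a tight junction gene, was not well above background at the high dose, which bounds it at 1.66-fold lower or more. The low-dose array, compared with the same control array, had 25 measured members, 0 past the rule (0.304% of all genes were lower there) and a median difference of -0.24.

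**Figure D2:**
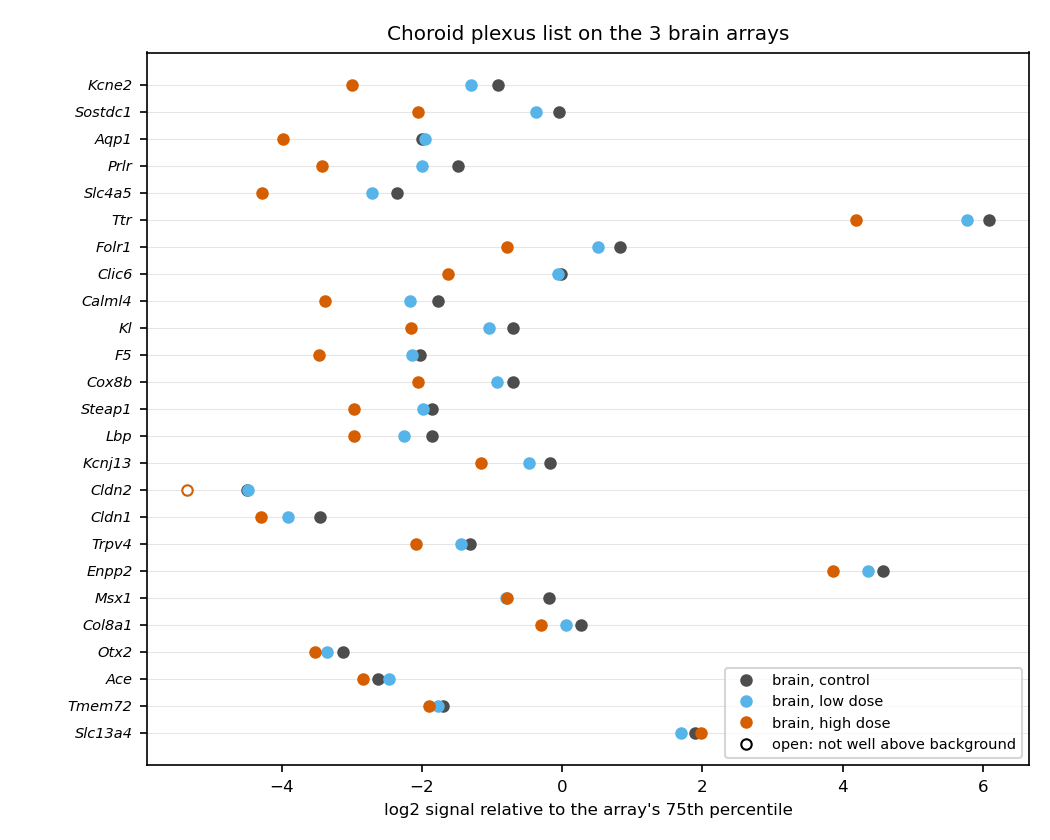
Levels of the 25 choroid plexus genes on the 3 brain arrays, 1 array per group, ordered by the difference between high dose and control; the axis is log2 signal relative to the array's 75th percentile and open symbols mark probes not well above background. For most genes the control and low-dose points lie close together and the high-dose point lies to their left, as for Ttr at 6.09, 5.78 and 4.19.

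Summed over members on the linear scale, the choroid plexus list's level as log2 was 6.74 (control), 6.46 (low dose) and 5.38 (high dose). Bright probes weigh most in such a sum, here that of Ttr. Neighbouring cell types differed less. Of the ependyma list, the ciliated cells that line the ventricles, 10 of 12 genes were measured. The rule called 0 of them, against 0.452% of all genes, and the median was -0.27. The summed level of the ependyma list was 2.58 in the control and 2.34 at the high dose. The meningeal fibroblast list had a median of 0.13 over 14 genes, with 0 past the rule, against the same 0.452% of all genes. The part that the piece of tissue taken played in the result was not tested. Other genes lower by the size rule, chosen after their values were seen, were Ecrg4 (-1.35), the keratin gene Krt18 (-1.33) and Wfdc2 (-1.33). Htr2c, the serotonin receptor gene that choroid plexus cells carry, had levels of -0.25 (control), 0.07 (low dose) and -1.08 (high dose), a difference of -0.83 that is short of the size rule.

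Among the higher genes, those of spermatids, the haploid cells that become sperm, had the 4 largest differences of any gene with a symbol. Of 39 genes on the spermatid list, 15 were measured on both arrays, 6 were higher by the size rule and 0 lower, where the rule called 0.202% of all genes higher. The list was chosen with earlier results of these data known. Of the 39 genes, 16 were well above background in the control and 30 at the high dose; over all spots that share was 64.0% and 67.1%, and 1165 genes were well above background at the high dose alone against 302 in the control alone. A gene that is dim in the control and bright at the high dose cannot be counted as measured on both, so the median over the 15 (0.46) describes those only.

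Protamines replace histones in the sperm nucleus, and transition proteins come before them. Prm1 had a level of -3.12 (control), -3.99 (low dose) and 2.42 (high dose), a difference of 5.54 (46.6-fold higher, array error 0.23). Its probe lies on chromosome 16 from 10796450 to 10796509 in mm9. Tnp1 stood at -3.61, -3.02 and 0.27, a difference of 3.88 (14.7-fold higher). Prm2 stood at -2.04, -2.13 and 1.56, a difference of 3.60 (12.1-fold higher). In all 3 genes the high-dose level was far above both other brain arrays. The neighbouring gene Prm3 did not share this: its levels were 2.16, 2.28 and 2.26, a difference of 0.10.

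Cytoskeletal and signalling genes of the list followed. Tuba3b, an alpha tubulin, had levels of -4.28, -3.96 and -1.33 on the control, low-dose and high-dose arrays, a difference of 2.94 (7.70-fold higher). The reported probe of the closely related Tuba3a gave -0.02, and transcripts of such near-identical genes can bind each other's probes. Tcp11, named for its place in the t complex, stood at -3.65, -3.82 and -1.48, a difference of 2.18. Tssk6, a kinase of the testis, gave 1.10. Measured members that stayed short of the rule were Hspa1l (0.46), Insl6 (0.46), Fhl5 (0.37), Tssk1 (0.25), Catsper2 (0.01), Acr (-0.03) and Spaca3 (-0.16).

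More members were well above background at the high dose but not in the control, so that for most of them the fold has only a lower bound. Ldhc, the lactate dehydrogenase of sperm, was at least 11.4-fold higher, with a level of -1.43 at the high dose. Smcp, a protein of the sperm mitochondrial capsule, was at least 8.85-fold higher and the transition protein gene Tnp2 at least 5.21-fold. Further bounds were 3.78-fold for the linker histone gene Hils1, 3.67-fold for H1f7 and 3.28-fold for Gapdhs, the glyceraldehyde-3-phosphate dehydrogenase of sperm. The sodium/proton exchanger gene Slc9b1 was 5.57-fold higher and Akap4, a scaffold of the sperm tail, 3.34-fold. These 2 values are observed folds against a dim control spot and not lower limits. Smaller bounds were those of Spem1 (2.22-fold), Tssk3 (2.01-fold), Actl7a (1.51-fold), Oaz3 (1.34-fold), Ropn1 (1.23-fold) and Actl7b (1.19-fold). Against all these higher genes, Spaca1 of the acrosome was at least 2.80-fold lower. Among genes outside the list, the histone gene H2al1e was at least 5.31-fold and Spink2 at least 4.99-fold higher.

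**Figure D3:**
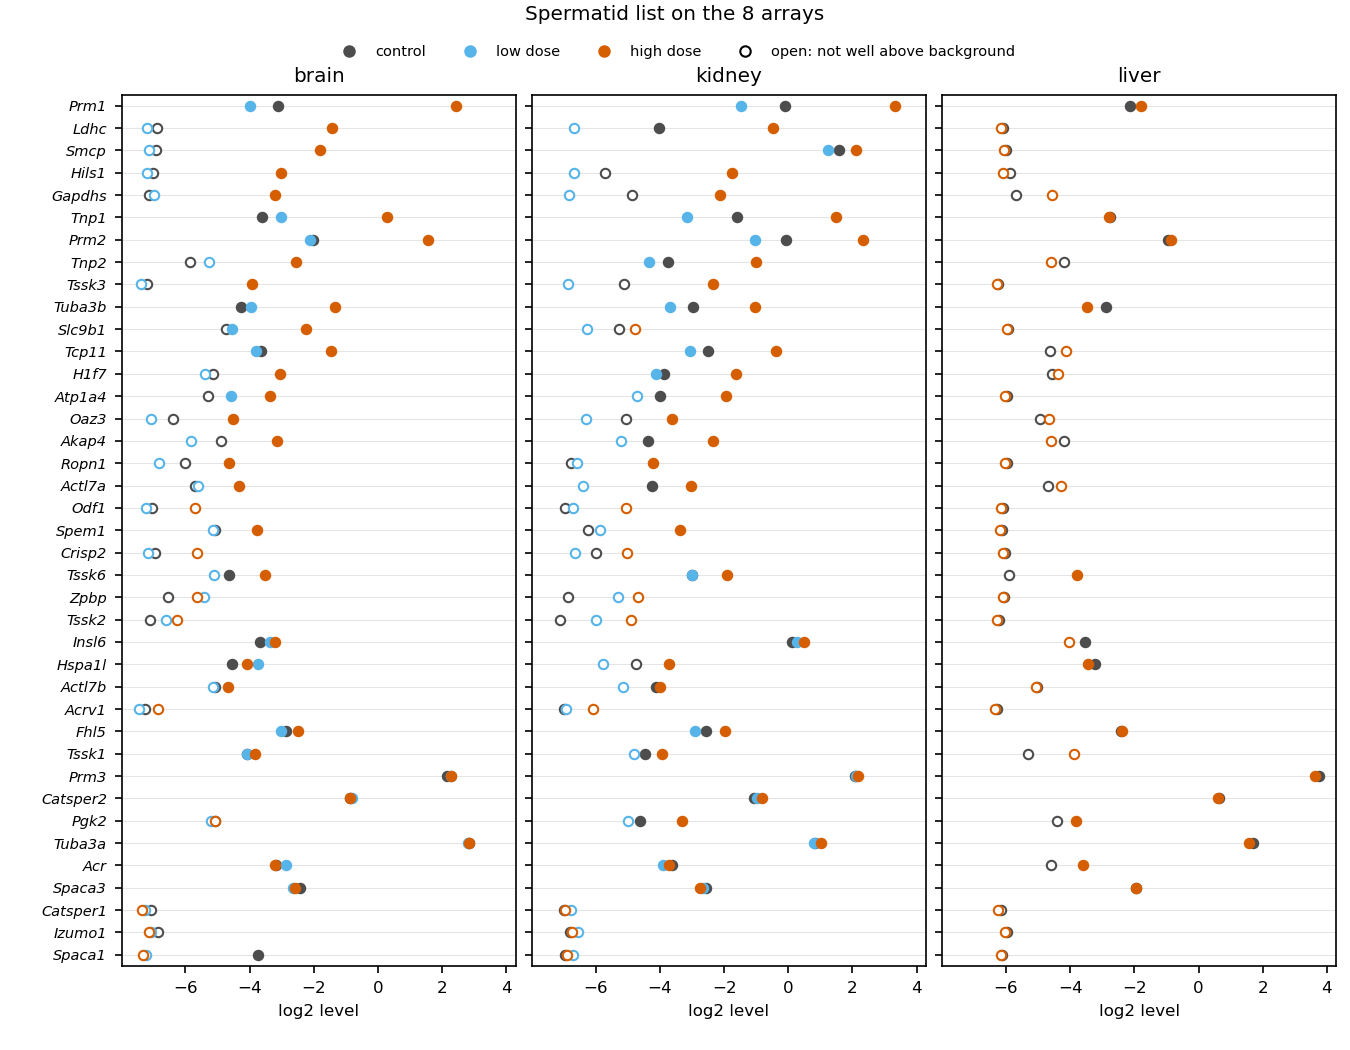
Levels of the 39 spermatid genes on all 8 arrays in 3 panels (brain, kidney, liver), ordered by the brain difference; the axis is log2 signal relative to the array's 75th percentile, with open symbols for probes not well above background. The high-dose points of brain and kidney lie to the right for genes such as Prm1 (2.42 in brain and 3.33 in kidney), while the liver points lie close together.

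Other genes best known from the testis were higher too: Tcp10b (1.84, second probe 0.72), Fhl4 (1.71) and Dbil5 (1.61). Meig1 (1.10), Zpbp2 (1.14), Spata19 (1.23) and Ropn1l (1.34), chosen after their values were seen, belong to the same tissue. Of the measured markers for other cells of the testis, 0 were past the rule, against 0.452% of all genes. Few were measured, so this count says little about those cells. Of the 14 spermatocyte genes 4 were measured (median -0.04, Syce1 at 0.80), and 4 were well above background in the control and 8 at the high dose. Among the latter, Mael was at least 2.78-fold higher, from -6.31 in the control to -3.46 at the high dose. Of the 11 spermatogonia genes 7 were measured (median -0.03), of the 11 Sertoli cell genes 2, and of the 7 Leydig cell genes 3. The spermatid list's summed level was 3.80 (control), 3.80 (low dose) and 4.67 (high dose), which includes the bright and even members Tuba3a and Prm3. Of 10 epididymis and seminal vesicle genes, 0 were well above background in the control and 1 at the high dose. How these genes came to be higher was not tested.

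The kidney has its own control array, so it shares no array with the brain comparison. All 8 arrays are on 1 slide, and whether both tissues came from the same mice is not given. In the kidney 13 of 23 measured spermatid genes were higher at the high dose, where the rule called 1.12% of all genes higher, and 0 were lower, where it called 0.538% lower. In the liver 0 of 10 were higher or lower, where it called 0.344% higher and 0.459% lower. In the kidney Prm1 had levels of -0.09 (control), -1.46 (low dose) and 3.33 (high dose), a difference of 3.42, and of -2.14 and -1.79 in the liver control and high-dose arrays. Tnp1 gave 3.09 and Prm2 2.39 in the kidney, with 5.54, 3.88 and 3.60 for Prm1, Tnp1 and Prm2 in the brain. Prm1 was well above background on both control arrays.

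Promoters are shown for Prm1 and Tnp1, the 2 spermatid genes with the largest differences, and for Kcne2, the choroid plexus gene with the largest difference. Each is the stretch of 125 bases that ends just before the transcription start, from RefSeq in GRCm38.p6. The Prm1 stretch is on the minus strand at chr16:10796824-10796948, that of Tnp1 on the minus strand at chr1:73015900-73016024, and that of the first of 2 Kcne2 starts on the plus strand at chr16:92292264-92292388. The stretch before the second Kcne2 start holds 0 bases in capitals. Capitals mark exact matches to the shortened cyclic AMP response element TGACGT, here read on the other strand. Forms of the element with other letters were not searched for, so a stretch without capitals may hold one.
Prm1: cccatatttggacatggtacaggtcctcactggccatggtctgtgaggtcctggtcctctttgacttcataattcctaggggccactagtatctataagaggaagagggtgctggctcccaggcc
Tnp1: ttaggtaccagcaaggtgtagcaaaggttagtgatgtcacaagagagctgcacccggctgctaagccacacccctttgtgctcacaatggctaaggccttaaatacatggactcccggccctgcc
Kcne2: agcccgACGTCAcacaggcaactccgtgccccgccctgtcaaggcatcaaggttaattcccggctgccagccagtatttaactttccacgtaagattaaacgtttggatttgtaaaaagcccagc

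Promoters were found in RefSeq for 34 of 39 spermatid and 19 of 25 choroid plexus genes. In the 250 bases before the start, on either strand, TGACGT occurred in 3 of 34 spermatid genes (Ldhc, Hspa1l and Izumo1) and 3 of 19 choroid plexus genes (Kcne2, Kcnj13 and Prlr), and in 7.29% of the 27025 genes with a promoter. The whole element TGACGTCA, which contains TGACGT, occurred in 1 of 34 and 0 of 19, and in 1.77% of all genes. TAATCC, the letters bound by OTX factors, occurred in 2 of 34 and 2 of 19 (Otx2 and Ace), and in 7.21% of all genes. A match describes these letters only, and no match says nothing about binding.

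Hormone genes of the pituitary, the gland at the base of the brain, were lower. Of 15 genes on the list 4 were measured and 2 were lower by the size rule, which called 0.25% of all genes lower. Prl, prolactin, had a level of -1.43 (control), -5.75 (low dose, not well above background) and -4.97 (high dose), a difference of -3.54 (11.6-fold lower, array error 0.33). Pomc, the precursor of corticotropin, which neurons of the hypothalamus express too, stood at 0.61, -0.94 and -1.04, a difference of -1.65. Gh, growth hormone, was at least 6.25-fold lower with a control level of -2.57, and Cga, the shared alpha subunit of the glycoprotein hormones, at least 2.17-fold lower. Here the control was the high array and both lead arrays were low, unlike the choroid plexus genes. Lhb (0.03) and Nr5a1 (0.11) were near the control, and Tshb, Fshb, Gnrhr, Pitx1 and Tbx19 were not well above background on any brain array. The list's summed level was 1.54 (control), 0.43 (low dose) and 0.44 (high dose), and whether the control tissue held pituitary cells was not tested.

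Genes of the striatum, the basal forebrain region of medium spiny neurons, lay below the control without passing the rule. All 17 members were measured and 17 had a difference below 0, where 50.9% of all genes did. The rule called 0 of them, against 0.452% of all genes, and the median was -0.62. Adora2a, the adenosine receptor of striatopallidal neurons, had levels of 0.20 (control), 1.96 (low dose) and -0.74 (high dose), a difference of -0.95. Penk, preproenkephalin, stood at 4.42, 5.95 and 3.60, a difference of -0.82. Drd1, a dopamine receptor, stood at 0.78, 2.45 and 0.15, a difference of -0.62, and its second probe gave -0.52. The smallest differences were those of Slc35d3 (-0.21), Adcy5 (-0.25) and Pde1b (-0.28). At the low dose, against the same control array, the list's median difference was 1.61 with 17 of 17 higher by the rule, which called 0.441% of all genes higher there, so the low-dose array was high and the high-dose array lowest for every gene of the list.

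Hippocampus genes were mixed. Of 12 genes 11 were measured, 0 were past the rule, where 0.452% of all genes were, and the median was -0.26. Fibcd1, a marker of CA1 neurons, had levels of -2.24 (control), -4.07 (low dose) and -3.19 (high dose), a difference of -0.95, and Dsp of the dentate gyrus differed by -0.88. Spink8 (-0.66) and Lct (-0.45) lay below the control, while Prox1 (-0.26), C1ql2 (-0.07), Neurod1 (-0.04), C1ql3 (0.18) and Tdo2 (0.47) were closer to it. For Fibcd1, Dsp, Spink8 and Lct the high-dose level lay between the other 2 brain arrays.

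**Figure D4:**
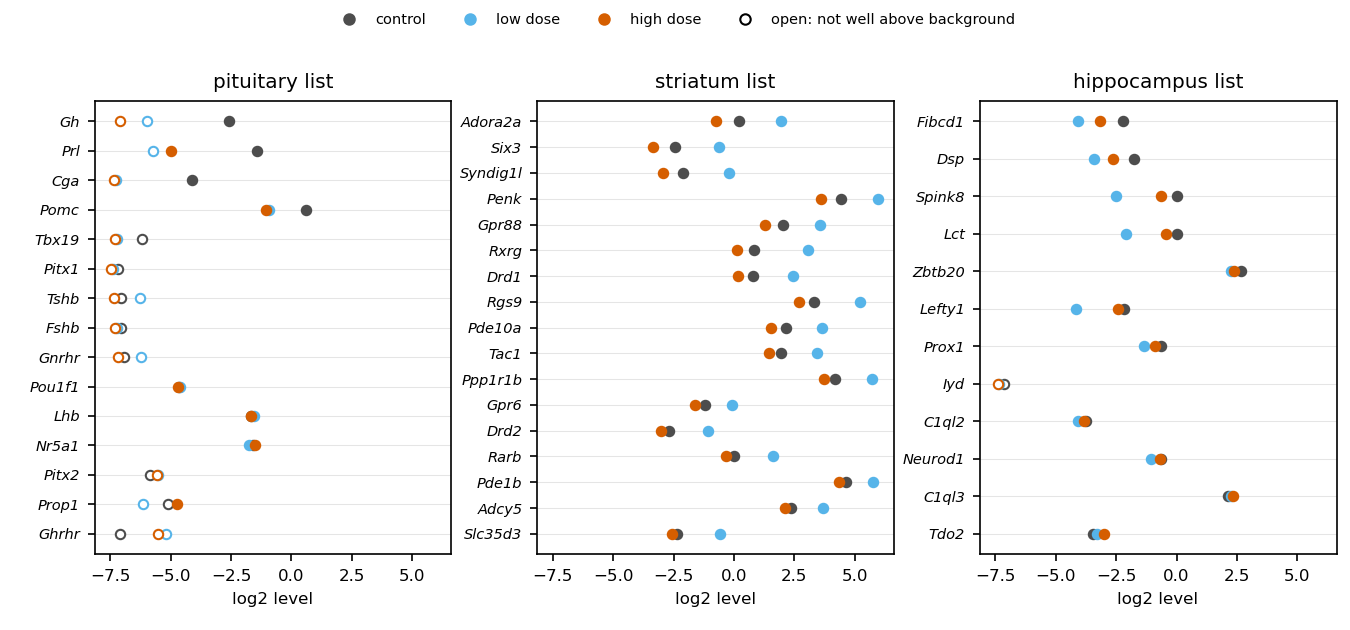
Levels of the pituitary, striatum and hippocampus lists on the 3 brain arrays, 1 panel per list, on a log2 scale relative to the array's 75th percentile, with open symbols for probes not well above background. Pituitary hormones are high in the control alone (Prl at -1.43), striatum genes are highest on the low-dose array (Adora2a at 1.96), and hippocampus genes such as Fibcd1 are lowest there (-4.07).

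The regional and cell type lists given next had 0 genes past the rule, where 0.452% of all genes were. Median differences were 0.10 for upper cortical layers, -0.08 for deep layers, -0.11 for thalamus, -0.07 for hypothalamus, 0.02 for cerebellum, -0.10 for interneurons and 0.01 for neurons in general. Myelin genes had a median of -0.22 with 15 of 17 below 0, where 50.9% of all genes were. They ranged from Ugt8a (-0.42) and Cldn11 (-0.34) to Mbp (0.30), the myelin basic protein gene. Oligodendrocyte precursor genes had a median of -0.19. Astrocyte genes had a median of 0.08 with 14 of 16 above 0, where 49.1% of all genes were. The exception in size was angiotensinogen, Agt (-0.62). Microglia (0.05), endothelium (0.09) and pericytes (0.01) were near 0, as were red cell genes (0.01). Neutrophil genes had a median of -0.50 over 5 of 11 genes, with S100a8 at -0.81.

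**Figure D5:**
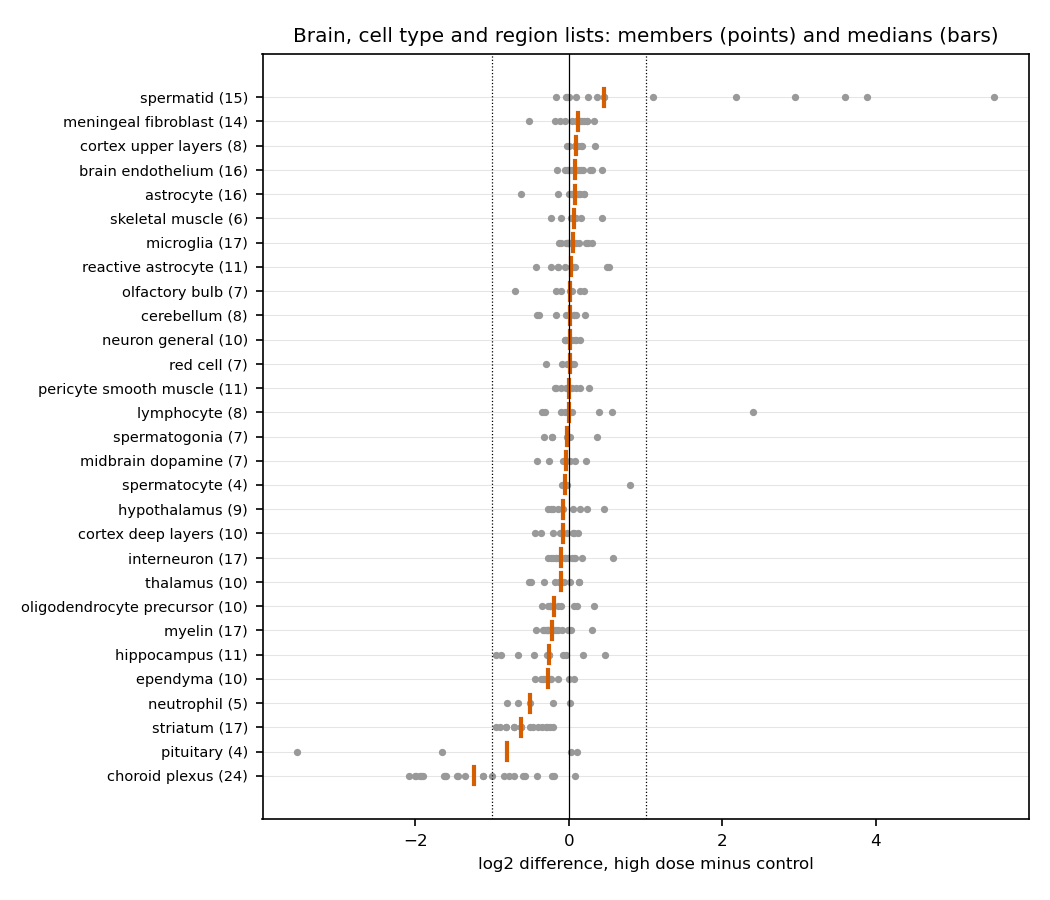
Log2 differences between the high-dose and control brain arrays for lists of cell types and regions with at least 4 measured genes (number in brackets), as points, with the list median as a bar and dotted lines at 1 and -1. Choroid plexus has the lowest median (-1.24), followed by pituitary (-0.81) and striatum (-0.62), and spermatid the highest (0.46).

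The series names transporters as its subject. Of 312 measured solute carrier genes 1 was past the size rule, where 0.452% of all genes were: Slc4a5, given above with the choroid plexus; the highest was the riboflavin carrier Slc52a3 (0.85) and the next lowest Slc10a4 (-0.97), which stood at -3.73 (control), -1.49 (low dose) and -4.70 (high dose). None of 37 measured ABC transporters (highest Abca9, 0.48) and none of 33 measured P-type ATPases (highest Atp7a, 0.35) was past it. The P-type ATPase gene Atp1a4, also on the spermatid list, was not well above background in the control and was at least 3.00-fold higher. Of 8 aquaporins, Aqp1 was lower and Aqp8 higher, where the rule called 0.25% of all genes lower and 0.202% higher: Aqp8 had levels of -4.01, -3.78 and -2.49 on the control, low-dose and high-dose arrays, a difference of 1.52 (2.88-fold higher). The astrocyte water channel Aqp4 differed by 0.20. Among 85 potassium channel genes 1, Kcne2, was past the rule, against 0.452% of all genes, and among 12 sodium, 25 calcium and 21 TRP channel genes 0 were, with Cacng8 (0.82) the farthest from 0 of the calcium channels.

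Genes that handle metals were close to the control. Of the 5 metallothionein list genes 4 were measured, with Mt1 (0.25), Mt2 (0.17), the brain form Mt3 (-0.09) and their activator Mtf1 (0.17). Mt1 had levels of 6.92, 6.92 and 7.17 on the control, low-dose and high-dose arrays. Zinc carriers had 0 of 22 past the rule, where 0.452% of all genes were, and a median of -0.00. Among them Slc39a4, an importer, stood at -0.82 and Slc30a7 at -0.39. The 13 heme genes had a median of 0.01 with 0 past the rule, against 0.452% of all genes. Alad, the enzyme that lead inhibits, was lowest (-0.16), and Hmox1 stood at 0.08. Of 14 iron genes Trf, transferrin, was lowest (-0.27) and the ferritin gene Ftl1 highest (0.13). Copper genes ranged from Slc31a1 (-0.24) to Atp7a (0.35).

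Glutamate receptor and plasticity genes of the NMDA list had a median of 0.02 over 23 genes with 0 past the rule, against 0.452% of all genes. They ranged from Shank3 (-0.28) to Bdnf (0.37), and Grin1, the obligate NMDA subunit, gave 0.01. Immediate early genes, the first to respond when neurons fire, had a median of -0.12 over 22 genes, with 1 lower by the rule, Ccn1 (-1.23), where 0.25% of all genes were. Btg2 differed by -0.97 and its second probe by -1.03, Npas4 by -0.58 and Fos by -0.56, while Klf4 (0.42), Egr1 (0.21) and Arc (0.12) lay above 0. Genes of the unfolded protein response lay above 0 in 19 of 20 cases, where 49.1% of all genes did. Their median was 0.17 with 0 past the rule, against 0.452% of all genes. The largest were Sdf2l1 (0.91), Creld2 (0.43) and the chaperone Hspa5 (0.39), whose levels were 3.56, 3.89 and 3.95 on the control, low-dose and high-dose arrays. The median was 0.03 for heat shock genes, among them Hspb1 (0.52), and 0.03 for NRF2 targets. Glucocorticoid targets gave 0.15, from Ddit4 (-0.52) to Plin4 (0.69), and clock genes 0.08, with Per2 at 0.57.

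Of the remaining lower genes named by their size, several had a low-dose level close to the high-dose level. Syt10, a calcium sensor of vesicle release, had levels of 1.97 (control), 0.24 (low dose) and -0.04 (high dose), a difference of -2.01, but its second probe gave -0.30. Wnt11, a secreted ligand, stood at -2.32, -4.23 and -4.26, a difference of -1.94, with 0.38 for its second probe. Med22, a Mediator subunit, stood at -0.64, -2.19 and -2.57, a difference of -1.93. Ces5a (-1.88), a carboxylesterase, and Dll1 (-1.61), a Notch ligand, complete the 15 largest. Grn, progranulin, had levels of 7.60, 6.54 and 6.37, a difference of -1.23 with its reported probe, and its other 2 probes gave -0.10 and 0.08. The lone point in the plot of differences is Gm34028, singled out after its value was seen: its 1 probe read 6.51 in the control and between -4.53 and -3.39 on the other 7 arrays, a difference of -9.93.

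The remaining higher genes included Dntt, the terminal transferase of developing lymphocytes, with levels of -3.46, -3.48 and -1.06. Its difference was 2.40 (5.27-fold higher), while the other 7 measured lymphocyte genes lay between -0.35 and 0.56. Rbakdn (2.29) was higher in the kidney too (2.33), and Prr30 stood at 1.61. Lect2 (1.67), a protein secreted by the liver, Cep85 (1.52, second probe 0.41), a centrosome gene, and Nkx2-3 (1.40), a homeobox gene, complete the 15 largest. Of the 1165 genes with a lower bound at the high dose alone, 117 were at least 2-fold higher. Of the 302 genes with a bound in the control alone, 110 were at least 2-fold lower. Those in the control alone included Tmem154 (at least 6.23-fold lower), Agr3 (5.03-fold) and the olfactory receptor genes Olfr1446 (4.80-fold) and Olfr610 (4.11-fold). Other olfactory receptor genes went the other way, such as Olfr222 (at least 2.64-fold higher). Of 1092 genes of this family, 185 were well above background in the control and 222 at the high dose. Over all spots that share was 64.0% and 67.1%. Of 165 measured olfactory receptor genes 1 was higher, Olfr316 (1.13), where 0.202% of all genes were.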

How the data were processed

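Scanner files of 8 Agilent arrays (1 design, 1 slide) give each spot's linear intensity. The authors extracted it with Agilent Feature Extraction (version 12.0.3.1 according to the submitters' processing notes), and the processed intensity is background-subtracted, per the file headers. The quality flags are deposited as 0 or 1. The deposited value table also holds intensity: it equals the processed intensity divided by each array's 75th percentile over all spots, and its column medians were 0.112, 0.113 and 0.114 for brain control, low and high dose, 0.0940, 0.0905 and 0.0936 for kidney, and 0.0915 (control) and 0.0918 (high dose) for liver.

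From these, log2 processed signals of non-control spots not marked as outliers or not uniform were averaged per probe, and the array's 75th percentile was subtracted. Each gene is represented by 1 probe, the brightest on average across the 8 arrays. RefSeq (GRCm38.p6) named 32994 probes through their accessions, 1535 of them with a new symbol; the other 23611 keep the array's own name. Probe positions are mm9, as in the files; exon and UTR positions were not analysed here. For a lower bound, the dim side was taken as its own level or, if that was lower, as the dimmest level called well above background on that array (-4.94 in the control, -5.22 at the high dose). Where the probe's own level was used, the value is the observed fold from a dim spot and not a strict bound.

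The comparison, the 78 gene lists and the rules were chosen with earlier results of these data known. Named were the 15 largest genes in each direction, transporters and channels past the size rule, the 6 largest bounds in each direction, members of the choroid plexus, spermatid, pituitary, striatum, hippocampus and metal lists, and up to 6 members of any other list; clone names were counted. A few genes that this rule names are not reported here. After the files were read, 2 list symbols were updated to the files' names (Arntl, Hils1), 1 alias of a gene already on the list was dropped, and ribosomal S6 kinases were taken off the ribosomal protein list. Python 3.11.15 with pandas 2.3.3, numpy 2.4.6 and matplotlib 3.10.9 was used, with limma 3.58.1 in R 4.3.3 for normexp. The size rule was run on simulated data whose noise was set below the array error. That run checks the calculation and cannot show how often unchanged genes are called on real arrays. Precision is limited by 1 array per group: 298 probes repeated on an array gave an SD of the difference of 0.0743, which covers spots and not mice. Both arrays correlated at 0.9959 over 34830 probes.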

Additional observations from a re-analysis of the deposited data

Results flagged for a closer look

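In the kidney at the high dose, 13 of 23 measured spermatid genes were higher by the size rule, which called 1.12% of all kidney genes higher. The 13 included Prm1 (3.42), Tnp1 (3.09) and Prm2 (2.39). The brain comparison does not use these arrays, and the kidney has its own control array. Whether both tissues came from the same mice is not given, and the list was chosen with earlier results known. In the liver 0 of 10 measured spermatid genes were higher.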

How the results depend on the processing

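Median scaling, quantile normalization, the deposited value table, spots marked as outliers kept and another choice or mean of probes kept both counts within 1.5 times the main ones; no scaling moved the median of all genes by over 0.1. Under normexp correction with quantile normalization 14 genes were higher and 25 lower, and all 39 were among the 103. Without a filter on dim probes 96 were higher and 95 lower. With levels above -2 required on both arrays 2 were higher and 8 lower, and counted as probes 86 were lower. The choroid plexus median was -0.88 under normexp and -0.71 over the 9 genes of the stricter filter, and stayed below 0 in every setting run. The spermatid median was 0.22 under normexp, 1.30 without a filter and 0.0052 over the 3 genes left by the stricter one. The pituitary median was -0.27 without a filter, and the 3 genes left by the stricter filter turned it to 0.0345. Striatum, hippocampus, immediate early and myelin medians moved by less than the median array error (0.205). Of the 30 genes named by size, transporters included, 6 fell short under normexp (Fhl4, Aqp8, Cep85, Nkx2-3, Ces5a and Dll1), 2 with the mean of probes (Cep85 and Wnt11), and 25 were too dim for the stricter filter; 0 changed direction. No paired analysis was possible because each group has 1 array, and no array could be left out. Signal over background limits precision: the median array error was 0.356 at mean levels below -4, 0.236 from -4 to -2, where 39 of the higher and 36 of the lower genes lie, and 0.204 at 2 and above.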
